A study of Mus musculus with 4 samples.

Results

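Wide acetylated domains at gene ends are stretches of at least 2000 bases that a peak caller reported as 1 unbroken interval of histone H3 acetylated at lysine 27 (H3K27ac), within 1 kb of either end of a protein-coding gene. They were taken from the deposited peak lists of 2 cultures of female mouse neural stem cells, 1 in which Smchd1 had been deleted and 1 control, on chromosomes 1 to 19 and RefSeq gene ends (GRCm38.p6, the build named mm10). The deleted list held 339 such domains among 90483 autosomal peaks (91639 deposited), and the control list held 163 among 62955 (63698 deposited). Overlapping domains of both lists joined into 374 loci. Domains were selected on their measured width and position, so their number, width and place are descriptions and not tests.

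The cells were neural stem cell lines made from E14.5 embryos that carried 1 deleted and 1 floxed Smchd1 allele, a maternal 129 X chromosome with the Xist deltaA allele and a paternal Castaneus X. The strain field reads C57BL/6. For the deleted culture, cells were transduced with the MSCV-Cre-puro retrovirus, put under puromycin after 24 h and harvested on day 7, while the controls were kept untransduced. Loss of Smchd1, the virus and the drug thus cannot be told apart. Each culture gave 1 ChIP library and 1 input library of whole-cell extract. Groups follow the titles, from which other fields depart. Both ChIP libraries have an antibody against trimethylated lysine 27 in their antibody field. The genotype field reads del/fl for the control ChIP, which is titled fl/fl, and del/del for the control input. The mark is taken from the titles here.

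H3K27ac is laid down by the acetyltransferases p300 and CBP at active promoters and enhancers, and it is removed by histone deacetylases. Most acetylated promoters carry it on a few nucleosomes beside the start site, whereas some genes carry it over long unbroken stretches that run into the gene. In many tissues such stretches are known to lie at genes that define the cell type, among them its master transcription factors. Smchd1 encodes a chromatin protein known for its role in X inactivation and at imprinted and protocadherin gene clusters.

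The first 6 promoters printed belong to genes that were wide in both lists, taken in order of domain width. Each has a tabled start within 1 kb of a wide domain of either list, not always the widest at the gene. The control domain at the Aspdh start, with 2322 bases, was below the median width of its list. They are RefSeq promoters of GRCm38.p6, each 300 bases from 250 before to 50 after the start on the plus strand, with each CG dinucleotide in capitals, since CG content is what these promoters are compared by below. Olig2 and Emx2 encode transcription factors of neural progenitors, Cdh20 encodes a cadherin adhesion protein, Maml2 encodes a coactivator of Notch, Josd2 encodes a deubiquitinase, and Aspdh is annotated as an aspartate dehydrogenase gene.
Olig2 (chr16:91225300-91225599): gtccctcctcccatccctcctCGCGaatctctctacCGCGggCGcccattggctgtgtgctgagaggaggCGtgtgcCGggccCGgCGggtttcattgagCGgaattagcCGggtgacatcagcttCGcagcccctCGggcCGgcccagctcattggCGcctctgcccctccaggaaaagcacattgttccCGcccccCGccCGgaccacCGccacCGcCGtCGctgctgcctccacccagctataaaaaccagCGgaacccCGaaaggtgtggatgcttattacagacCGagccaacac
Emx2 (chr19:59458440-59458739): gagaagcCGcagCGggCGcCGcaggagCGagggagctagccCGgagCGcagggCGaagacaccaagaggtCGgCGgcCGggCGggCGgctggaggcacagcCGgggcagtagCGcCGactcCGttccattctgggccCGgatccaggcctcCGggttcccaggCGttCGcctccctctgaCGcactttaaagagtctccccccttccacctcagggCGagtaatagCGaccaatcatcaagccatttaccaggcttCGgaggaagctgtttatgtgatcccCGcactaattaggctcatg
Cdh20 (chr1:104768270-104768569): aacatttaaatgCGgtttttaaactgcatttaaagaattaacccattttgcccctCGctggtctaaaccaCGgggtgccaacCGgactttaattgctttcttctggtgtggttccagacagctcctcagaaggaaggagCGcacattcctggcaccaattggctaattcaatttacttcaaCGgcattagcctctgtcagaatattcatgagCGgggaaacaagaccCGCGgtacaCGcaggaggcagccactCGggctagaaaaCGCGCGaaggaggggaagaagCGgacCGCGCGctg
Josd2 (chr7:44467730-44468029): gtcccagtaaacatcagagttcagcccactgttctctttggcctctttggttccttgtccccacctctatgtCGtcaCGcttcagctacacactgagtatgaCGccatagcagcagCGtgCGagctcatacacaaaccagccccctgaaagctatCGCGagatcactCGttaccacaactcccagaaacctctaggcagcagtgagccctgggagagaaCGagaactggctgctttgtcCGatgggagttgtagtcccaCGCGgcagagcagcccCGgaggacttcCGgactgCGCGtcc
Aspdh (chr7:44465185-44465484): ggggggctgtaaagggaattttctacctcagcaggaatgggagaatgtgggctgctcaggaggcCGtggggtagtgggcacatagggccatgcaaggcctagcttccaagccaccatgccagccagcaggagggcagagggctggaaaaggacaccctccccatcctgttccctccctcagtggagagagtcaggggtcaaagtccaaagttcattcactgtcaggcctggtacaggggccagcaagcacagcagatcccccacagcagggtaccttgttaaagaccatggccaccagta
Maml2 (chr9:13297708-13298007): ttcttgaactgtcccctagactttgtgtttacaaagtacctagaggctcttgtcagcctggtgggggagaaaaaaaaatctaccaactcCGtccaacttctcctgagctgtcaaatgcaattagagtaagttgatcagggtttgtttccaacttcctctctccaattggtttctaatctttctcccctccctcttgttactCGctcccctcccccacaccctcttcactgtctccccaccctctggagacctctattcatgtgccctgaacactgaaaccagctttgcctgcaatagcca

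The Olig2, Emx2 and Cdh20 promoters held 25, 26 and 18 CG, with an observed over expected ratio of CG of 0.815, 0.838 and 0.935. Josd2 had 16 CG and a ratio of 0.678. Aspdh and Maml2 were poor in CG, with 1 and 2 CG and ratios of 0.0394 and 0.130. The domain of Olig2 began 43 bases downstream of the printed start in the deleted list and 66 bases downstream in the control list, and that of Emx2 began 486 and 472 bases downstream. The starts of Cdh20, Aspdh and Maml2 lay inside a wide domain in both lists. For Josd2, a deleted domain of 6996 bases began 93 bases downstream of the start. The wide control domain nearest to the Josd2 start, of 2322 bases, ended 474 bases upstream of it. The printed Maml2 start is a tabled RefSeq start within 1 kb of its domain, taken without comparing distances between starts.

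Printed next are the promoters of the genes with the widest domain in 1 list only, among those with a tabled start within 1 kb of it, Kcnc1 (deleted list, a potassium channel gene) and Fam72a (control list), and of Slc17a6, a vesicular glutamate transporter gene of neurons with no gene-end peak in either list. Slc17a6 was picked after its values were seen, as the neuron gene closest to the median CG ratio of genes without a peak.
Kcnc1 (chr7:46396218-46396517): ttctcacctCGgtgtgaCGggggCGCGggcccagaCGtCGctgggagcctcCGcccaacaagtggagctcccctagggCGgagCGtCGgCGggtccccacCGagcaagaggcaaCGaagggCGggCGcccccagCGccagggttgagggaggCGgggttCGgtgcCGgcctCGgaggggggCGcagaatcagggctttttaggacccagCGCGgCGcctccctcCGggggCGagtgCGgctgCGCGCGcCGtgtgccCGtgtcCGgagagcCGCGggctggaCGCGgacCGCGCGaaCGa
Fam72a (chr1:131527653-131527952): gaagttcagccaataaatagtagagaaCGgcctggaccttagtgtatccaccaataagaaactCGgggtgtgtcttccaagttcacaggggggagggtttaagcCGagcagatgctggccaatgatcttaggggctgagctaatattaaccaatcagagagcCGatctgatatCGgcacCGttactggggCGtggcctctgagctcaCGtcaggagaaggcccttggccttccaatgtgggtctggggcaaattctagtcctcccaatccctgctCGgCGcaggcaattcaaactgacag
Slc17a6 (chr7:51624387-51624686): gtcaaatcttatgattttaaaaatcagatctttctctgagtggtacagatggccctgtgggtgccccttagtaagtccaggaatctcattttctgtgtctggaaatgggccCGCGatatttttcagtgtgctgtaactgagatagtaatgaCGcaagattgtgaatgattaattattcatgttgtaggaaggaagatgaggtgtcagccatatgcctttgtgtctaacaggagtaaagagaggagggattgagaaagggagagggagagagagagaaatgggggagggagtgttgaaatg

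Kcnc1 had 41 CG and a ratio of 0.996, Fam72a 10 CG and 0.483, and Slc17a6 3 CG and 0.264. The nearest peak to the Slc17a6 start was 215386 bases away in deleted cells and 215411 in controls.

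Several of the widest domains of both lists lay at ends of transcription factor genes of the forebrain and of genes for inhibitors of growth factor signalling. Among the widest of the deleted list were domains at Aspdh and Josd2 with 6996 bases, the intermediate filament gene Nes with 6208, Spry4 and Arhgap26 with 5757, and the neural POU factor gene Pou3f3 with 5319. Emx2 had 5275 bases, the Hedgehog pathway inhibitor Sufu 5164, Maml2 5069, Olig2 4922, and Mtss2 with Vac14 4897. In the control list the widest was at Josd2 with 5565 bases, followed by Spry4 and Arhgap26 with 5488, Emx2 with 5193, Sufu with 4825 and Olig2 with 4824. Otx1, another forebrain factor gene, had 4362 bases there, Dnajb12 4275, the ERK feedback inhibitor Spry2 4229, the neural tubulin gene Tubb2b 4212 and Cdh20 4198. Josd2, Spry4, Emx2, Sufu and Olig2 stood among the 10 widest of both lists. Some of the domains named here lay only near the far end of a gene, with its start over 1 kb away. Those of Sufu and Pou3f3 did so in both lists.

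Most domains were far shorter than these. The median width was 2442 bases in the deleted list (quartiles 2174 to 2906) and 2389 in the control list (quartiles 2123.5 to 2969), and 184 of 339 and 94 of 163 were under 2500 bases. Just inside the limit stood Golph3 and Vasp with 2006 bases and Kremen1 with 2009 in the deleted list, and just outside it H2-Ke6 with Slc39a7 and Manbal with 1999 and Hunk with 1998. In the control list Garem2 with 3110082J24Rik at 2004, Olfml3 at 2006 and Zfp532 at 2008 were just inside, and Slc25a18 at 1996, Cmtm5 with Il25 at 1995 and Dlst with Prox2 at 1994 just outside. Widths ran on across the limit with no gap: 153 deleted and 73 control gene-end peaks had 1800 to 1999 bases, and 96 and 53 had 2000 to 2199. Wide domains were 1.72% of the 19758 deleted gene-end peaks and 0.972% of the 16774 control ones, and they held 919 kb and 437 kb, or 7.71% and 4.77% of the gene-end length called.

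Wide domains were also strong, a property the rule did not use, although width and strength are read from the same library. Fold enrichment, the authors' ratio of ChIP to local background at a summit, had a median of 11.2 over deleted domains and 11.3 over control domains. Narrower gene-end peaks had medians of 5.21 and 5.65. A fold of at least 10 was reached by 63.8% of deleted domains (exact Clopper-Pearson 95% interval 58.4 to 69.0) and 9.71% of narrower gene-end peaks, and by 65.0% (57.0 to 72.4) and 8.49% in the control list. These shares leave out chromosome 18, and all intervals here cover counting error only, since neighbouring peaks are not independent. Wide peaks away from gene ends, 519 and 246 of them, were weaker, with median folds of 7.89 and 8.47. The strongest wide gene-end domain was Pou3f3 in the deleted list, at 24.3-fold, and in the control list Sall3, a zinc finger factor gene, at 23.2-fold.

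The deleted list had 2.08 times as many wide domains as the control list, beside 1.44 times as many autosomal peaks, 1.18 times as many gene-end peaks and 1.28 times as many filtered ChIP tags (54194233 against 42277672, with 77101643 and 80601280 input tags). Wide peaks away from gene ends stood in a ratio of 2.11, and domains of at least 3000 bases in a ratio of 1.975. Summit pileup, the number of fragments stacked at the summit, moved with the tags. Its median deleted over control ratio was 1.27 over 12338 narrower gene-end peaks that overlapped 1 to 1, and 1.28 over the 126 domains wide in both lists. The ratio was 1.24 for the 212 domains wide in the deleted list only, against the highest control peak each met, and 1.25 for the 35 wide in the control list only. So at all 3 kinds of domain the summit heights kept nearly the ratio of the library depths. The part of depth in the number of wide domains was not tested.

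No domain of either list stood where the other list had nothing. All 339 deleted domains met a control peak and all 163 control domains met a deleted peak; a count of 0 allows a share without one of up to 1.08% and 2.24% (exact Clopper-Pearson upper bounds). Among all gene-end peaks, 25.5% of the deleted list and 7.79% of the control list met no peak of the other. Most of those peaks were far shorter, and a longer interval meets a peak more easily. All 519 deleted and 246 control wide peaks away from gene ends also met a peak of the other list, so this is not particular to gene ends. Of the deleted domains, 127 (37.5%, 32.3 to 42.9) met a wide control domain, and of the control domains 128 (78.5%, 71.4 to 84.6) met a wide deleted one. The remaining 212 and 35 met narrower peaks, or wide ones beyond 1 kb of a gene end. Longer domains were wide in both lists more often: 42 of 184 deleted domains of 2000 to 2499 bases were, and 7 of the 8 of at least 5000 bases. In the control list it was 70 of 94 and 3 of 3. A domain just over 2000 bases falls below the limit with a small change in width, so nothing is read from this trend.

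**Figure D1:**
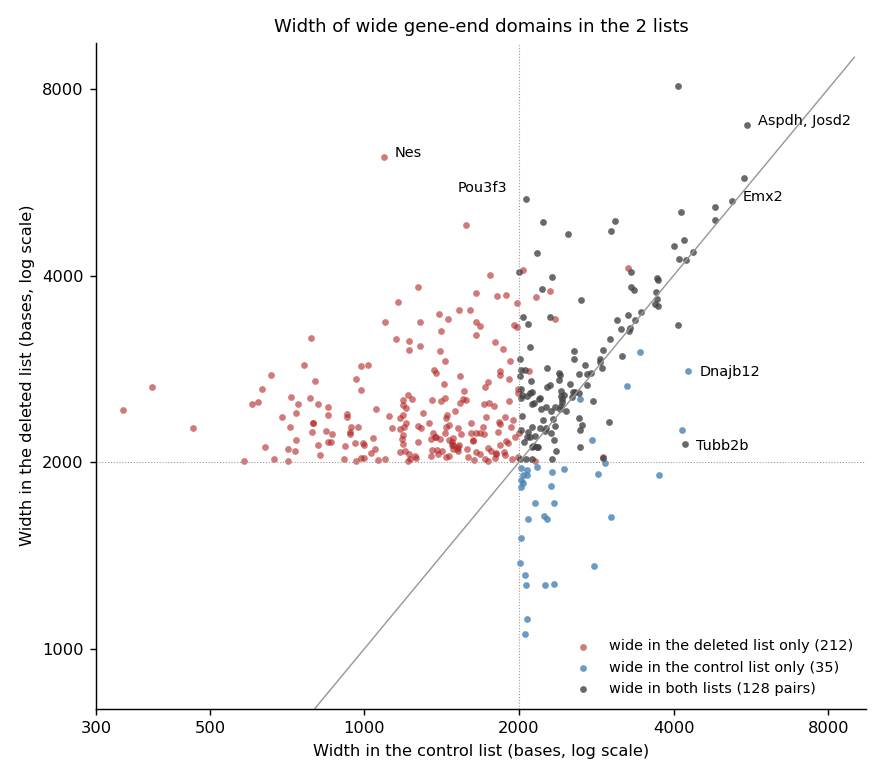
Width of each wide gene-end domain in the control list (horizontal, bases, log scale) and in the deleted list (vertical, bases, log scale). Red and blue points are the 212 and 35 domains wide in 1 list only, set against the widest peak they met in the other list, black points are the 128 pairs wide in both, dotted lines mark 2000 bases and the grey line marks equal width; red and blue points past a dotted line met a wide peak over 1 kb from a gene end. Black points crowd along the line, with Pou3f3 above it and Tubb2b below, while Nes stands far to the left of it.

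Where both lists were wide, the widths were close. Over the 126 domains that overlapped 1 to 1, the median ratio of deleted to control width was 1.05 (quartiles 1.00 to 1.17, range 0.507 to 2.57), with 95 wider in deleted cells and 31 in controls. Widths within 1.1 times of each other were found at 70 of them, and summits within 100 bases of each other at 70. Examples are Otx1 with 4358 bases in deleted cells and 4362 in controls, Spry2 with 4238 and 4229, and Dusp6, which encodes a phosphatase that switches off ERK, with 3489 and 3452. At least 1.5 times wider in the deleted list were 11 of them, and 1 in the control list. Among all 12589 gene-end peaks that overlapped 1 to 1, the median ratio was 1.12, 18.9% were at least 1.5 times wider in deleted cells and 3.6% in controls. Width chose the domains, so nothing is read from this difference.

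Pou3f3 had the largest ratio, with a deleted domain of 5319 bases (chr1:42697288-42702606) and a wide control domain of 2067 bases. The deleted interval met 5 control peaks, which together covered 89.1% of it, and the highest of them had a fold of 22.4 against 24.3 for the deleted domain. Lypla2 with Pithd1 (4886 and 2224 bases in the deleted and control lists), Garem2 with 3110082J24Rik (4046 and 2004) and Inka2 (4346 and 2165) also had large ratios.

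The smallest ratios were at Tubb2b, with 2137 bases in deleted cells and 4212 in controls, and at Sox8, a glial and neural crest factor gene, with 2028 and 2916. Tmem247 (2325 and 2993), Ptk2, which encodes focal adhesion kinase (2116 and 2626), and Skida1 (3327 and 4088) followed. At Tubb2b the fold was 8.23 over the wide deleted domain and 11.4 over the control domain. That control domain met 2 deleted peaks, which covered 97.0% of it and had folds of up to 10.4. The control domains of Sox8, Tmem247 and Skida1 also met 2 deleted peaks each, which covered 94.5% to 95.9%, and that of Ptk2 met 1. Tubb2b was the only domain wide in both lists that was at least 1.5 times wider in the control list. The Sox8 domain of small ratio lay only near the far end of the gene. Sox8 and Skida1 each had a further domain wide in both lists. Its deleted and control widths were 2596 and 2549 bases at Sox8, and 2435 and 2399 at Skida1.

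Domains wide in 1 list only mostly met 2 or more peaks, or pieces, in the other list. Of the 212 in the deleted list, 179 met 2 or more control peaks and 33 met 1, and the control peaks covered a median of 81.2% of the domain. The pieces reached over at least 2000 bases from the first to the last in 141 (66.5%). The widest piece was under 1000 bases in 51. In the 179, the bases of gap inside the domain had a median of 250, and they were under 500 in 147. Of the 35 control domains, 26 met 2 or more deleted peaks, with a median gap of 134 bases, and deleted peaks covered a median of 92.8%. The caller kept neighbouring peaks apart by at least 81 bases, beside a tag length of 80 bases. Why a domain was split or shorter in the other list was not tested.

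Nes, which encodes the intermediate filament nestin of neural stem cells, was the most divided. Its deleted domain at the far end of the gene (chr3:87978018-87984225, 6208 bases) met 7 control peaks, the widest of 1091 bases, which covered 80.2% of it, with folds of 8.17 in the deleted list and up to 8.60 in the control list. At the start of Nes stood a second domain that was wide in both lists, with 3252 and 3281 bases. Flot2 (2769 bases) and Arid1b (2621 bases) met 5 control peaks each, the widest of 659 and 631 bases. Sox21, a neural progenitor factor gene, had 4005 bases in the deleted list and 3 control peaks of up to 1756, with folds of 18.3 and 18.6. Kcnc1, with 4085 bases, met a control peak of 2032 bases that lay over 1 kb from the gene's ends, so the rule did not count it. Iffo1 with Nop2 had 4835 bases in the deleted list against control pieces of up to 1577.

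In the control list the widest such domain was near Dnajb12, which encodes a chaperone cofactor, with 4275 bases (chr10:59899973-59904247) met by 2 deleted peaks of up to 2809 bases that covered 96.7% of it. Fam72a with Srgap2 (4151 bases), Cdr2l (3754), the proteoglycan gene Cspg4 (3440) and Lrrfip1 (3243) were likewise met by 2 deleted peaks each, which covered 86.8% to 95.6%. Rhoq and Egln1, which encodes an oxygen-sensing prolyl hydroxylase, met 3 deleted peaks each. A control domain at Rab26 also met 3, the widest a wide domain of 3434 bases, so it counts as wide in both lists.

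**Figure D2:**
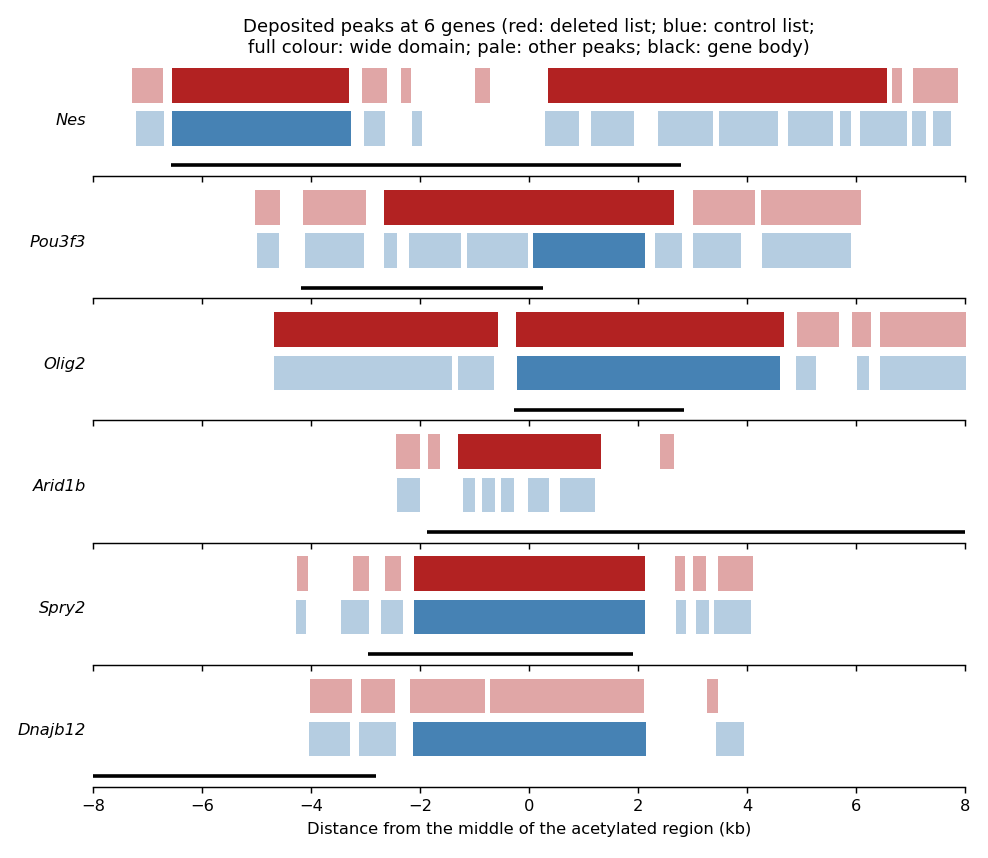
Deposited peaks of the deleted list (red) and the control list (blue) at 6 genes, by distance in kb from the middle of the acetylated region, with wide domains in full colour, other peaks pale and the gene body in black. Nes, Pou3f3 and Arid1b show 1 deleted domain over several control peaks, Spry2 shows matching domains, and Dnajb12 shows 1 control domain over 2 deleted peaks; the genes were chosen after their values were seen.

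A few deleted domains were covered less than the rest. Control peaks covered at least 50% of the domain in 205 of the 212. The lowest was a domain beside Acap1, Kctd11 and Tmem95 (chr11:69878369-69881008, 2640 bases) with 36.5% covered by 3 control peaks. It was followed by Rela, which encodes an NF-kappaB subunit (2505 bases, 37.2%), the spectrin gene Sptan1 (2269 bases, 38.4%), the histone H3 lysine 79 methyltransferase gene Dot1l (2540 bases, 39.4%) and Akr1b7 (2424 bases, 44.6%). At Rela the fold was 11.1 in the deleted list and up to 12.7 in the control list, so the control list had a peak of like height over a shorter stretch. At Dot1l the folds were 9.07 and 5.04. Among the 35 domains wide in the control list only, the least covered was Egln1, with 83.6% of its bases in deleted peaks. Folds of the lists stand on their own inputs, with no scaling from one library to the other.

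Over genes, 146 of the 20661 autosomal protein-coding genes (0.707%) had a wide domain in both lists. Another 274 (1.33%) had it only in deleted cells and 37 (0.179%) only in controls, which makes 457 or 2.21% in either list. A narrower gene-end peak was found at 11520, and none at 8684. A gene is counted wherever a domain lies within 1 kb of its end, so neighbours share domains. In the gamma protocadherin cluster, 24 gene ends stood at 1 deleted domain of 2867 bases on chromosome 18, met by 2 control peaks of up to 764 bases, and a further domain at Pcdhgc3 alone was wide in both lists, with 2558 and 2418 bases.

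The 22 gene lists used were chosen with earlier results of these data known, so their shares are descriptions. Among them, transcription factors of neural progenitors had the highest share of wide domains. Of 38 such genes, 18 had a wide domain in either list (47.4%, exact 95% interval 31.0 to 64.2, against 2.21% of all genes), 12 in both and 6 in the deleted list only, and 17 more had a narrower peak. Besides Emx2, Olig2, Otx1, Pou3f3 and Sall3, the 12 held Sox2, the central factor of neural stem cell identity (3021 bases in deleted cells and 2558 in controls), Olig1 (2677 and 2513), Meis1 (2668 and 2300), Sox8, Zic1 (2558 and 2075, a domain shared with Zic4) and Sox4 (2243 and 2248). Among the 6 wide in the deleted list only were Sox21, Id3 (3298 bases in deleted cells and 1985 in controls), Sox1 (2381 and 1450), Tcf12 (2049 and 1349) and Nfib (2135 and 1479). Here and below, the control value beside a domain wide in the deleted list only is the widest control peak it met. Both Id3 and Nfib met 3 control peaks, which covered 79.6% of the Id3 and 88.8% of the Nfib domain. Of the 38 genes of this list 3 had no gene-end peak, against 8684 of all 20661.

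Genes of the neural stem cell surface, filaments and RNA-binding proteins had a wide domain at 6 of 21 (28.6%, 11.3 to 52.2), 5 in both lists. These 5 were Nes, the proteoglycan gene Bcan (3651 bases in deleted cells and 2636 in controls), the glutamate transporter gene Slc1a3 (2966 and 3168), Ptprz1 (2529 and 2424) and the receptor gene Notch1 (2705 and 2109). Cspg4 was wide in the control list only, with 980 bases in the deleted list within 1 kb of its ends. A deleted peak of 3006 bases overlapped that control domain but lay farther than 1 kb from the gene's ends.

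The lists of other cell types held 1 wide gene. None was found among 11 astrocyte, 17 neuron, 10 fibroblast, 9 microglia, 7 endothelial and 8 pluripotency genes, and the exact upper bounds for shares of 0 in lists this short run from 19.5% to 41.0%. A narrower peak was found at 10 of the 11 astrocyte genes, and 13 of 17 neuron genes and all 8 pluripotency genes had no gene-end peak. The exception was Sox10, a factor of the oligodendrocyte lineage, with 2593 bases in deleted cells and 2572 in controls, 1 of 9 oligodendrocyte genes. With 2.21% of all autosomal coding genes wide, a count of 0 in lists this short says nothing about a cell type. The neural stem cell lists also hold genes of glial lineages, such as Olig1, Olig2, Sox8, Cspg4 and Slc1a3.

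Cell cycle regulators were next by share, with 4 of 18 D and E cyclins, their kinases and inhibitors, all wide in both lists. Their share was 22.2% (6.41 to 47.6), against 2.21% of all autosomal coding genes. The cyclin gene Ccnd1 had 4058 bases in deleted cells and 3304 in controls. The kinase inhibitor genes followed, Cdkn2c with 2939 and 2561, Cdkn1a with 2821 and 2054 and Cdkn1b with 2168 and 2345. In both lists the Cdkn1b domain lay only near the far end of the gene, with the start over 1 kb away. Among p53 target genes 3 of 17 were wide (17.6%, 3.80 to 43.4), Cdkn1a again and Zmat3 (2338 and 2227) in both lists and Phlda3 (2352 and 1444) in the deleted list only. Immediate early genes had 3 of 27 (11.1%, 2.35 to 29.2), with Klf6 (2196 and 2073) in both lists and Fosl1 (2507 and 1913) and Jun (2025 and 1940) in the deleted list only. The 2.21% of all genes stands beside these 2 shares as well. Of all autosomal coding genes, 8684 of 20661 had no gene-end peak, against 2 of 18 cell cycle, 1 of 17 p53 target and 2 of 27 immediate early genes. The shares thus compare lists of mostly acetylated genes with all genes.

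Pathway genes were wide at single members. Notch, Hedgehog and Wnt pathway genes had 3 of 38 (7.89%), all in both lists. The interval of that share, 1.66 to 21.4, holds the 2.21% of all autosomal coding genes. They were Sufu, at its far end only, Notch1 and the ligand gene Wnt5a (2627 bases in deleted cells and 2017 in controls). Genes of the ERK pathway's feedback and output, which include inhibitors of the Spry, Spred and Dusp families and the ETS factor genes Etv1, Etv4 and Etv5, were added to the lists after the widest domains had been seen, so their share is no evidence of its own. Of 12 such genes, 5 were wide in both lists, Spry1 (2873 and 2694), Spry2, Spry4 (5757 and 5488), Spred2 (2549 and 2540) and Dusp6, and 3 in the deleted list only, Spred1 (3075 and 1284), Etv1 (2788 and 1377) and Etv5 (2032 and 1000). Dusp4 was wide in the control list only, with a control domain of 3026 bases that met 2 deleted peaks of up to 1633, and Spred3, Dusp5 and Etv4 had narrower peaks.

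Chromatin genes were wide at single members. Of the 25 subunit genes of the BAF remodelling complex 3 were wide (12%, 2.55 to 31.2, against 2.21% of all autosomal coding genes), the large ARID subunits Arid1a (3166 bases in deleted cells and 787 in controls), Arid1b (2621 and 631) and Arid2 (2084 and 734), all in the deleted list only. The Arid1a domain had a fold of 20.0, and the highest of the 4 control peaks it met had 13.6. Of the 25 BAF genes 1 had no gene-end peak, against 8684 of all 20661. Their share of wide genes thus compares mostly acetylated genes with all genes. Of 24 writers, erasers and readers of acetylation only Ep300, which encodes p300 itself, was wide (4.17%, 0.105 to 21.1), with 2629 bases in deleted cells and 1987 in controls. Among 24 Smchd1 and Polycomb genes 2 were wide (8.33%, 1.03 to 26.997). The intervals of this share and of that for acetylation genes hold the 2.21% of all autosomal coding genes. Kdm2b, which recruits a Polycomb complex to CG islands, had a domain wide in both lists (2841 and 2908) and beside it a deleted domain of 3360 bases that met 2 control peaks of up to 1650, and Hnrnpk, whose domain is shared with Rmi1, was wide in the deleted list only (2858 and 987). Smchd1 itself had a narrower peak, with 995 bases in deleted cells and 1090 in controls at folds of 7.72 and 8.88. Acetylation at the gene's ends says nothing of whether Cre removed the floxed exons.

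Imprinted genes, a known target class of Smchd1, had 3 of 44 (6.82%), and the interval of that share, 1.43 to 18.7, holds the 2.21% of all autosomal coding genes. They were Cd81 in both lists (3930 bases in deleted cells and 3726 in controls), and Peg12 (3521 and 1604) and H13 (2076 and 1649) in the deleted list only. The deleted domain of Peg12 covered the whole gene of 2640 bases. Of 74 ribosomal protein genes 5 were wide (6.76%, 2.23 to 15.1), with Rpl13a (2588 and 2097) and Rps19 (2157 and 2050) in both lists, Rpl32 (2307 and 1839) and Rpl4 (2173 and 1625) in the deleted list only and Rpl3 (1907 and 2034) in the control list only. Of 31 splicing factor genes 3 were wide (9.68%, 2.04 to 25.8), Hnrnpk and Hnrnpa3 (2107 and 1740) in the deleted list only and Hnrnpul2 (1720 and 2149, shared with Ttc9c) in the control list only. Of 15 reference genes 2 were wide (13.3%, 1.66 to 40.5), Rpl13a among them. The intervals for splicing factor and reference genes hold the 2.21% of all autosomal coding genes, and that for ribosomal protein genes starts just above it. Of the 74 ribosomal protein genes 2 had no gene-end peak, against 8684 of all 20661, so that list too was mostly acetylated. None of 19 interferon-stimulated genes was wide, 14 of them having a narrower peak. None of 39 Hox genes, which pattern the trunk and hindbrain, had any gene-end peak.

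**Figure D3:**
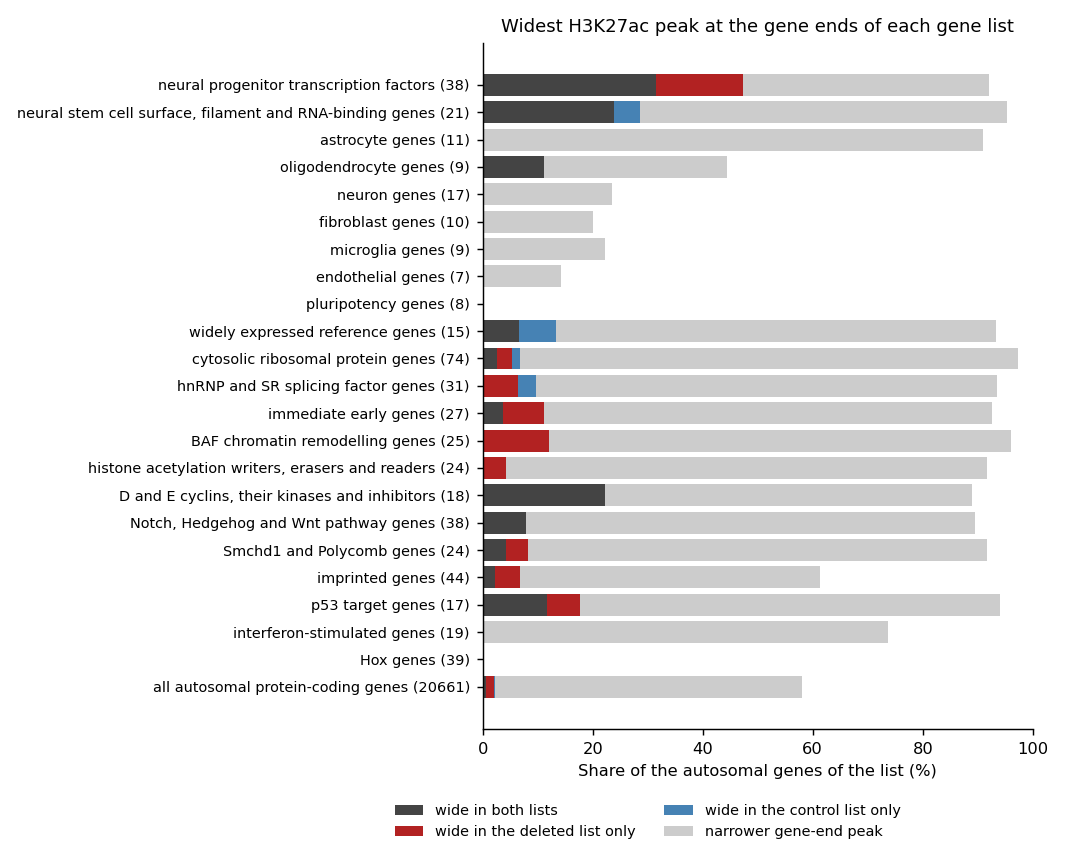
Share of the autosomal genes of each list (percent, with the number of genes in brackets) by the widest peak at their ends, as stacked bars: wide in both lists (black), in the deleted list only (red), in the control list only (blue) and narrower (grey). The bars for neural progenitor transcription factors reach 47.4% wide, against 2.21% of all autosomal protein-coding genes, while most other lists are mainly grey.

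Some genes had 2 wide domains in a list, 19 in all. Otx1, Sall3, Skida1, Sox8 and Josd2 had 2 in both lists. Olig2 had 2 in deleted cells and 1 in controls. The domain over its gene body had 4922 and 4824 bases, while the 4108 bases upstream (chr16:91221158-91225265) were 2 control peaks of up to 3262 bases that covered 95.8%. Rab26 was the reverse case, with 1 in deleted cells and 2 in controls. Some genes lay mostly under their domain: Olig2 was covered to 98.6% in deleted cells and 97.9% in controls, the creatine kinase gene Ckb to 97.5% and 97.3%, Sox2 to 97.8% and 81.4% and Emx2 to 79.1% and 77.9%. In all, 58 of 420 genes in the deleted list and 24 of 183 in the control list were covered over at least 50% of their length.

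Domains leaned into the gene, and so did narrower gene-end peaks. Among domains whose neighbouring genes all had a known strand (262 deleted and 122 control), 47.3% and 38.5% held a start, 35.9% and 36.1% lay wholly downstream of a start within 1 kb, and 5.34% and 4.10% wholly upstream. Narrower gene-end peaks lay wholly downstream in 34.9% and 40.7%, shares near those of the domains. They lay wholly upstream in 23.8% in both lists and held a start in 15.4% and 12.5%. A wide interval holds a start more easily, so the shares that hold one are no comparison free of the rule. With exactly 1 start inside, deleted domains (87) reached a median of 536 bases upstream and 1888 downstream with the summit at 370, and control domains (38) reached 582 and 1922 with the summit at 438.5. More of the domain lay downstream in 82.8% (73.2 to 90.0) and 86.8% (71.9 to 95.6), and the shares of narrower peaks, 77.2% and 74.1%, lay inside these intervals. Spry2 is an example, with 208 bases upstream and 4029 downstream in the deleted list and 209 and 4019 in the control list, and Cdkn2c is near even, with 1347 and 1591, and 1306 and 1254. A far gene end alone, with the start over 1 kb away, accounted for 9.54% of the deleted and 17.2% of the control domains. Of narrower gene-end peaks it accounted for 18.6% and 13.7%.

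**Figure D4:**
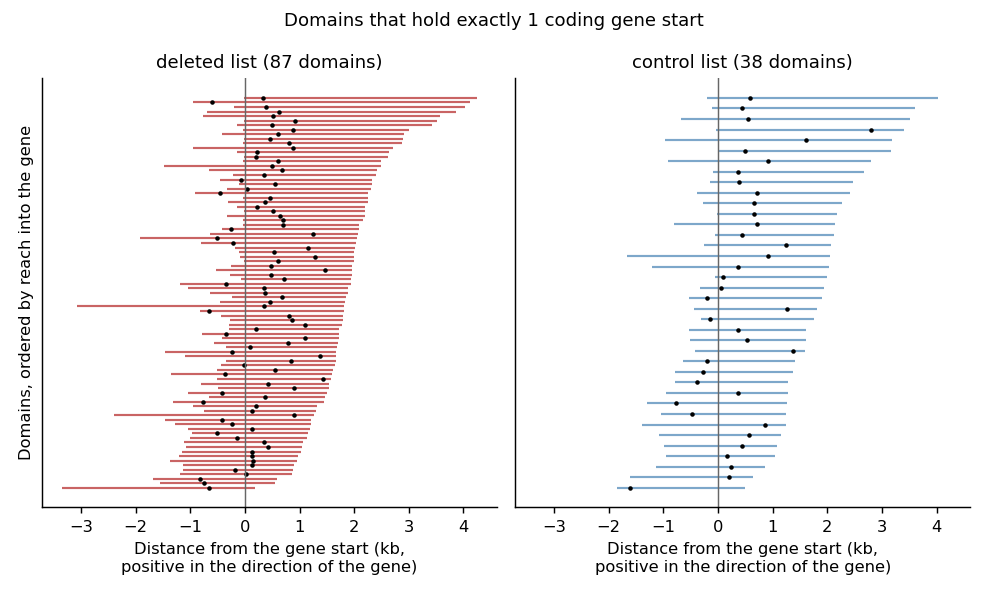
Reach of domains that held exactly 1 coding gene start, as distance in kb from that start with positive values in the direction of the gene, in the deleted list (87 domains) and the control list (38 domains). Each line is 1 domain and each dot its summit; most lines reach farther to the right than to the left, with medians of 1888 and 1922 bases downstream.

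Other peaks stood close by. The next peak of the same list was within 500 bases for 76.0% of deleted domains (71.0 to 80.5) and 80.9% of control domains (73.9 to 86.7), against 67.7% and 63.5% of narrower gene-end peaks, chromosome 18 left out. A median of 6 other peaks lay within 10 kb of a domain in both lists, against 2 around narrower gene-end peaks and 11 and 10 around wide peaks away from gene ends. Ends of long noncoding genes were within 1 kb of 17.7% of deleted (13.8 to 22.2) and 19.6% of control domains (13.8 to 26.6), against 11.3% and 11.7% of narrower gene-end peaks. A wide interval comes within 1 kb of more gene ends, so these shares too are no comparison free of the rule. Across chromosomes, wide domains made up 0.966% (chromosome 16) to 2.23% (chromosome 14) of gene-end peaks in the deleted list and 0.469% (chromosome 5) to 2.04% (chromosome 12) in the control list. Every autosome had more in the deleted list, from 1.14 times on chromosome 3 to 4.25 times on chromosome 6, where 17 stood against 4.

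The promoters of genes with wide domains were rich in CG, about as rich as those of other acetylated genes. A RefSeq promoter was at hand for 349 of the 457 genes (444 promoters). Their median observed over expected CG was 0.789, with 23 CG in 300 bases and 63.0% GC. Genes with a narrower peak had 0.749, 20 CG and 60.7% GC, and genes without a peak had 0.247, 4 CG and 49.3% GC, beside 0.586 over all 20084 promoters. A ratio of at least 0.6 was found in 75% of promoters of wide genes, 68.3% with a narrower peak and 19.6% with none. The median was 0.788 for genes wide in both lists, 0.791 for those wide only in the deleted list and 0.759 for those wide only in the control list. Counting only starts within 1 kb of the domain itself, which 294 genes had, the median over wide genes was 0.811. Aspdh and Maml2, printed above, are thus exceptions, and Olig2, Emx2 and Kcnc1 are closer to the rest.

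**Figure D5:**
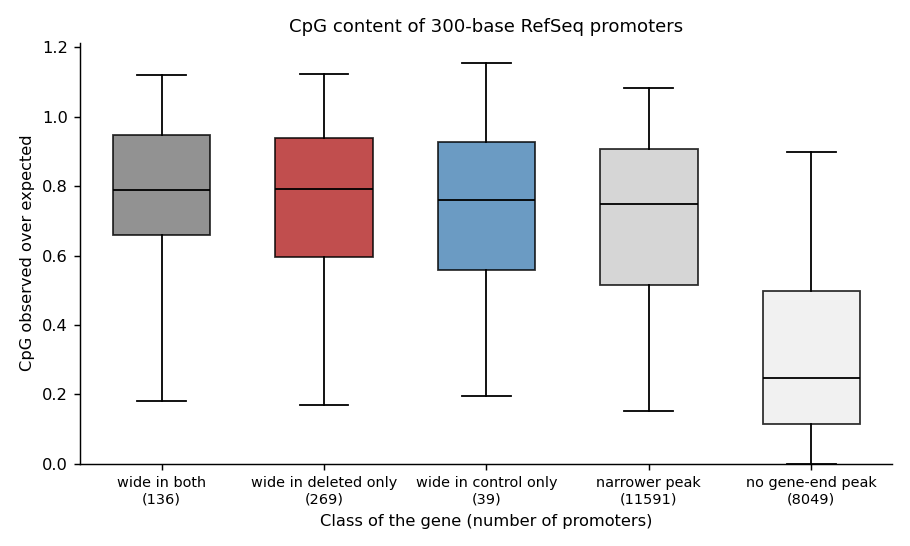
Observed over expected CG of 300-base RefSeq promoters by class of gene, with the number of promoters under each box; the line is the median, the box the quartiles and the whiskers the 5th and 95th percentiles. Medians of the 3 wide classes and of genes with a narrower peak lie between 0.749 and 0.791, and that of genes without a gene-end peak at 0.247.

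Of the short motifs searched on both strands, some were more or less frequent at genes without a peak, while wide genes and genes with a narrower peak mostly had like shares. The GC box GGGCGG was in 64.4% of promoters of wide genes (59.8 to 68.9), 61.9% with a narrower peak, 24.7% with none and 47.0% of all. The ETS motif CCGGAAG was in 16.9%, 17.2%, 3.89% and 11.9%, and the TATA box TATAAA in 7.21%, 6.73%, 21.6% and 12.7%. The NRF1 motif GCGCATGCG was in 1.35% of promoters of wide genes (0.497 to 2.92), 3.66% with a narrower peak, 0.584% with none and 2.38% of all, and the CRE motif TGACGTCA in 1.58% (0.636 to 3.22), 3.12%, 1.16% and 2.30%. Of the 11 motifs searched, NRF1 was the only motif whose share with a narrower peak lay outside the interval over wide genes. The CCAAT box, 2 E-boxes (CACGTG and CAGCTG) and the AP-1 (TGANTCA), SOX (AACAAAG) and octamer (ATGCAAAT) motifs had the shares 36.0%, 7.43%, 14.2%, 5.18%, 3.15% and 0.901% in wide genes, and 37.7%, 9.57%, 15.7%, 4.71%, 3.87% and 1.34% with a narrower peak. With no peak these 6 shares were 38.8%, 5.49%, 15.7%, 10.5%, 6.46% and 2.20%, and over all promoters 38.1%, 7.89%, 15.6%, 7.06%, 4.89% and 1.67%.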

How the data were processed

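H3K27ac was measured by ChIP-seq in 4 libraries: 1 ChIP and 1 input per culture, grouped by title. Per the submitters' processing notes, bcl2fastq, Bowtie 0.12.9, MACS2 2.1.0.20140616 and the build mm10 were used. Per the file headers, the authors called narrow peaks in each ChIP library with its input as control, a q-value limit of 0.05, down-sampling of the larger library and a single tag per position. For each peak the authors deposited the summit pileup signal, the fold enrichment ratio over local background, and −log10 p and −log10 q values, all as MACS2 wrote them, and no count per library and region. Per the file headers, 54194233 deleted and 42277672 control ChIP tags passed the filter, and the length of a list and of its intervals can move with depth.

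From these lists, domains of at least 2000 bases within 1 kb of a RefSeq coding gene end were taken with Python 3.11.15 and pandas 2.3.3, and compared by overlap of at least 1 base. The gene table has no strand, so strand came from the promoter table. Shares have exact Clopper-Pearson 95% intervals from scipy 1.17.1. Each group has 1 library, so no replicates stand behind a difference between the lists, and it is given without a p-value. The interval code was checked on simulated data with planted overlaps.

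Domains, the 22 gene lists and the tests were chosen with earlier results of these data known. Genes are named by rule: the 10 widest domains of each list, the 5 largest and 5 smallest width ratios, up to 5 per list that met most peaks of the other list, the 3 on either side of 2000 bases, and up to 4 members per gene list. The 5 widest domains not wide in the other list, the 5 least covered, the ERK feedback genes, the mapped genes and further single genes were added after their values were seen. Some genes that the rule names are not reported here. The rule for domains that met no peak of the other list named none. Alternatives were other width limits, windows and overlaps, joined peaks, lists of equal length, a stricter q limit and gene starts only.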

Additional observations from a re-analysis of the deposited data

Results flagged for a closer look

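The X chromosome lies outside the rule of chromosomes 1 to 19 and held data that no comparison above used. It had 3 wide gene-end domains in the deleted list, at Chst7 (2592 bases), Tmem35a (2100) and Ubqln2 (2051), and 1 in the control list, at Chst7 (2470). These were 3 of 415 X gene-end peaks (0.723%, exact 95% interval 0.149 to 2.098) and 1 of 330 (0.303%, 0.00767 to 1.68). The autosomal shares, 1.72% in deleted cells and 0.972% in controls, lay inside these intervals. The difference between the lists was not tested, since each rests on 1 library.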

How the results depend on the processing

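No paired analysis was possible because each group has 1 library and the results come from no test across samples; for the same reason no replicate could be left out. Of 57 recomputed values, 45 stayed close to the reported ones and 12 moved. With a width limit of 1500 bases there were 879 deleted and 445 control domains and 424 genes wide in both lists, and with 3000 bases 79, 40 and 35. Joining peaks closer than 500 bases gave 2112 and 1382 domains and 1575 genes, and 56.8% of deleted and 87.7% of control domains then met a wide domain of the other list. The ratio of deleted to control domains was 1.53 after joining, against 2.08 as called and 1.98 at both other width limits. When at least 50% of a domain had to be covered, 2.06% of deleted domains had no match in the control list. Trimming the lists to equal length or to −log10 q of at least 5 changed none of these counts, since every domain had −log10 q of at least 6.90 in the deleted list. Neither step shortens a called interval, so neither matches the libraries in depth.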
